A study of Homo sapiens with 6 samples.

Results

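Expression of 10 genes that encode sensors of xenobiotics and metabolites was examined in RNA-seq data of luciferases-expressing HepG2 cells, namely AHR, ARNT, NR1I2, NR1I3, RXRA, PPARA, NR1H3, NR3C1, NR5A2 and ESRRA. These genes were chosen by name, and all 10 were found by symbol among the 61541 Ensembl genes of the deposited count table. HepG2 is a human hepatoblastoma cell line, and this derivative carries an artificial chromosome with a red luciferase (SLR3) driven by antioxidant response elements and a green luciferase (ELuc) as internal control. The cells of 3 libraries were exposed to sedanolide, a phthalide of celery, at 100 μM for 24 h, and 3 libraries came from control cells at the same time. Both groups carry both reporters. The labels do not state what the control medium held in place of sedanolide, nor whether the libraries came from separate cultures, so that p-values measure only the spread between these libraries. The comparison asks how the transcriptome of these cells differs after sedanolide.

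AHR is a ligand-activated transcription factor of the bHLH-PAS family that rests in the cytosol with HSP90, moves into the nucleus when it binds a ligand, and pairs with ARNT on xenobiotic response elements. NR1I2 (PXR) and NR1I3 (CAR) sense drugs and bile acids in the liver, and like PPARA (fatty acids) and NR1H3 (LXR alpha, oxysterols) they bind DNA as heterodimers with RXRA. NR3C1 is the glucocorticoid receptor, NR5A2 (LRH-1) drives bile acid and cholesterol genes in the liver, and ESRRA is an orphan receptor of mitochondrial energy genes. The activity of these proteins is set mainly by ligands and partners, which RNA-seq does not measure.

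Total expected counts were between 16420258 and 26714853 per library. The libraries fell into a pair of sets that did not follow the treatment. On component 1 of a principal component analysis, which held 56.1% of the variance, control 1, control 2 and sedanolide 3 (the first set) lay opposite control 3, sedanolide 1 and sedanolide 2 (the second set). Mitochondrial genes took 1.43% to 2.15% of the counts in the first set and 4.23% to 5.22% in the second. No source used here names a batch, so results are also given with the set as a term of the model, a choice made after seeing the data. All 13 markers of HepG2 cells and hepatocytes were above 3 counts in every library. Of 14 markers of other cell types, 7 stayed at or under 3 counts in each library, among them PTPRC (leukocytes) and COL1A1 (fibroblasts). Another 6 were above 3 counts in every library, namely ACTA2, EPCAM, KRT19, CD68, PECAM1 and LYVE1. CD68 had 199.9 to 379.9 counts and ACTA2 1288.3 to 2186.5 counts per library. The summed level of these 14 markers was 172.6 to 220.9 CPM (normalized counts scaled to a common library size) in control and 165.2 to 217.3 CPM in sedanolide libraries. That of the 13 hepatocyte markers was 32550 to 47413 CPM in control and 24616 to 40500 CPM in sedanolide libraries, and its part in the results was not tested. In such bulk data, fewer expressing cells and less RNA per cell cannot be told apart.

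The promoters of the members are shown first, because the red reporter of these cells reads antioxidant response elements (ARE), which NRF2 binds, and AHR with ARNT binds xenobiotic response elements (XRE). RefSeq (GRCh38.p14) gave 23 windows for the 10 members, each from 250 bases before to 50 after an annotated start. The ARE core was searched as TGANNNNGC and the XRE core as GCGTG on both strands, and matches may overlap. An ARE core was in a window of 5 of the 10 members, where 47.1% of all genes had one in any window. By window, it was in 6 of 23 member windows and in 41.8% of all 35116 windows of this length. An XRE core was likewise in a window of 5 of the 10 members, where 40.6% of all genes had one in any window. By window, it was in 8 of 23 member windows and in 36.5% of all windows. Both letter patterns are therefore common, and a match is a description of the letters, not a site. A direct repeat of the receptor half-site, written AGGTCA, any 1 base and AGGTCA again, which RXR heterodimers can bind, was in 0 of the 23 windows and in 8 of all windows. The only match in the AHR window lies past its start, and that of ARNT held 3 ARE cores. NR1I2, NR3C1, NR1H3 and RXRA each held at least 1 ARE core, on the strand opposite to the gene. The stretches below are written 5′ to 3′ on the strand of the gene with up to 10 flanking bases on each side, and capitals mark the match.
AHR, XRE core at chr7:17298679-17298701, plus strand: tgttccgagaGCGTGccccggac
ARNT, ARE core at chr1:150876764-150876792, minus strand: ggccgtgtgtTGACTCCGCctactatata
ARNT, ARE core at chr1:150876702-150876730, minus strand: tgggggctgcTGAAGCCGCcatcttggat
NR1I2, ARE core at chr3:119781938-119781966, plus strand: ctcttcatttGCTAGTTCAagtgctggac
NR3C1, ARE core at chr5:143435021-143435049, minus strand: gggaatatctGCTGAATCAgtggctctga
NR1H3, ARE core at chr11:47248701-47248729, plus strand: gcccgggtggGCGGCATCAccaccaggtt
RXRA, ARE core at chr9:134326310-134326338, plus strand: gcggcgctgcGCCGAGTCAgcgcccgtcg

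NR1I2 and NR3C1 are the 2 members whose sedanolide and control libraries did not overlap, as described further on. The 250 bases before a start of each are given here, at an annotated start whose upstream bases GENCODE 44 places in no exon. Neither holds any of the 3 motifs, so that all letters are small. Other windows of these genes do hold matches. Counted along the gene, windows 4 to 7 of NR3C1 held 1, 4, 4 and 1 XRE cores and window 2 held 1 ARE core. Window 1 of NR1I2 held 1 ARE core. Which of the 2 starts of NR1I2 and the 7 of NR3C1 was used in these cells cannot be read from counts per gene.
NR1I2, chr3:119782460-119782709, plus strand: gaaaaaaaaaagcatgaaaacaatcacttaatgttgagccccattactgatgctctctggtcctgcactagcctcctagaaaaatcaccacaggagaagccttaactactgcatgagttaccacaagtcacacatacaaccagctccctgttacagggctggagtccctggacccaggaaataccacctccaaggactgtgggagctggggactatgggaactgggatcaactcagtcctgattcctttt
NR3C1, chr5:143405356-143405605, minus strand: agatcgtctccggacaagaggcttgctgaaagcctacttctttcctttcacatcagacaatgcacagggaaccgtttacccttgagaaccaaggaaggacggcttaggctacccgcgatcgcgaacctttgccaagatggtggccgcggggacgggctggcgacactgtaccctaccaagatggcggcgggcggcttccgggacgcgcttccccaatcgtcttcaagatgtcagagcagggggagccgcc

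Levels were compared between genes on a per-length scale, with the TPM recovered from the deposited log2(TPM + 1) table, which holds 9 of the 10 members. NR1H3 was the most abundant in control cells at 34.6 ± 5.97 TPM (SD, n = 3), followed by RXRA at 26.3 ± 3.14 TPM, NR3C1 at 23.2 ± 1.31 TPM, ARNT at 19.97 ± 3.81 TPM, ESRRA at 18.1 ± 1.79 TPM and NR1I2 at 15.3 ± 2.44 TPM. NR5A2 stood at 11.6 ± 3.09 TPM and PPARA at 11.6 ± 1.14 TPM. AHR was the lowest at 3.71 ± 1.78 TPM, between 2.30 and 5.71 TPM. Along this order the ranges of the control libraries of neighbors overlapped, except between RXRA and NR3C1 and between PPARA and AHR. In sedanolide-treated cells NR1H3 (36.2 ± 6.23 TPM) and RXRA (24.5 ± 1.21 TPM) were again the highest and AHR (2.62 ± 1.66 TPM) the lowest of the 9.

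**Figure D1:**
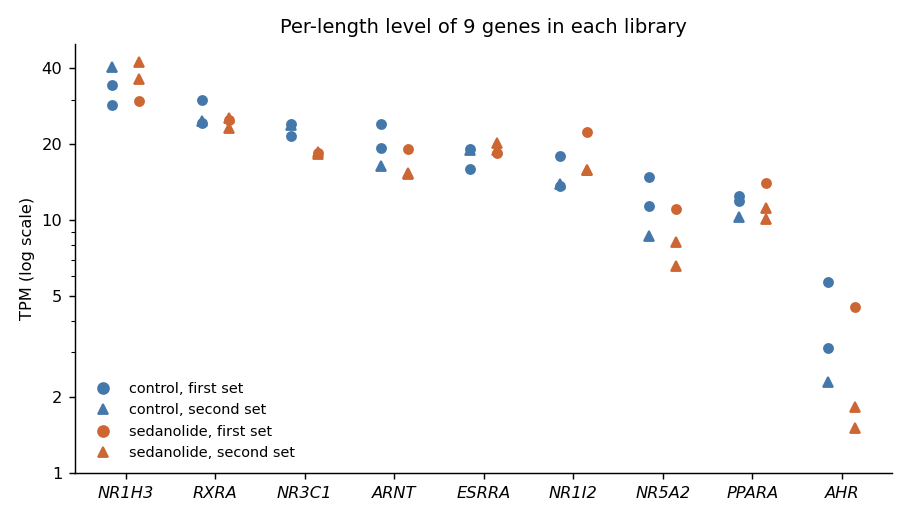
TPM on a log scale for the 9 members in the deposited log2(TPM + 1) table, ordered by the control mean, with 1 point per library, color for the treatment and shape for the library set. The 3 sedanolide libraries of NR3C1 lie below its 3 control libraries, and AHR lies below all other members.

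NR1I3, the receptor CAR, was close to absent. Its expected counts were 5.86, 4 and 2 in the control libraries 1 to 3, against 2.05, 3.25 and 9.03 in the sedanolide libraries 1 to 3, which is at most 0.364 CPM. It did not pass the filter on low counts and has no fold change here. NR1I3 (ENSG00000143257, minus strand of chromosome 1 of GRCh38, 161229666 to 161238244) shares 663 exon bases with TOMM40L on the opposite strand, which had 2735.8 counts over all libraries. The library kit keeps the strand, but the strand setting of the counting is not given in the sources used here.

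Sedanolide moved none of the 9 members tested past the thresholds of the study (a false discovery rate, FDR, of 0.05 and a fold change of 1.5). With edgeR's quasi-likelihood test 0 of 9 were called, where 0.674% of all 14104 genes and reporters tested were, and 0 of 9 had an unadjusted p-value under 0.05, where 11.9% of all had. DESeq2 and limma-voom also called 0 of 9, with 0 of 9 at an unadjusted p-value under 0.05 each. The fitted log2 fold change was positive for 4 members and negative for 5, with a median of -0.04 beside 0.0057 over all genes tested. In 2 of 9 members (22.2%) the 3 sedanolide libraries did not overlap the 3 control libraries, where 18.3% of all genes did not overlap (8.69% with sedanolide higher, 9.66% with it lower), so that this count is no result about the members. A p-value that misses the threshold does not show equal levels, and the intervals give the sizes left possible. The 95% intervals of the log2 fold change of the members other than AHR lay between -0.69 and 0.81, and that of AHR reached -1.22. With 1 library left out at a time, the outermost bounds were -1.53 for AHR and 1.02 for NR1H3. Without sedanolide 3, AHR and ARNT had an unadjusted p-value under 0.05 from edgeR, 2 of the 9 members. In that fit 3251 of all genes had one, beside 1681 with all libraries. In each other fit with a library left out, 0 of 9 members had one.

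**Figure D2:**
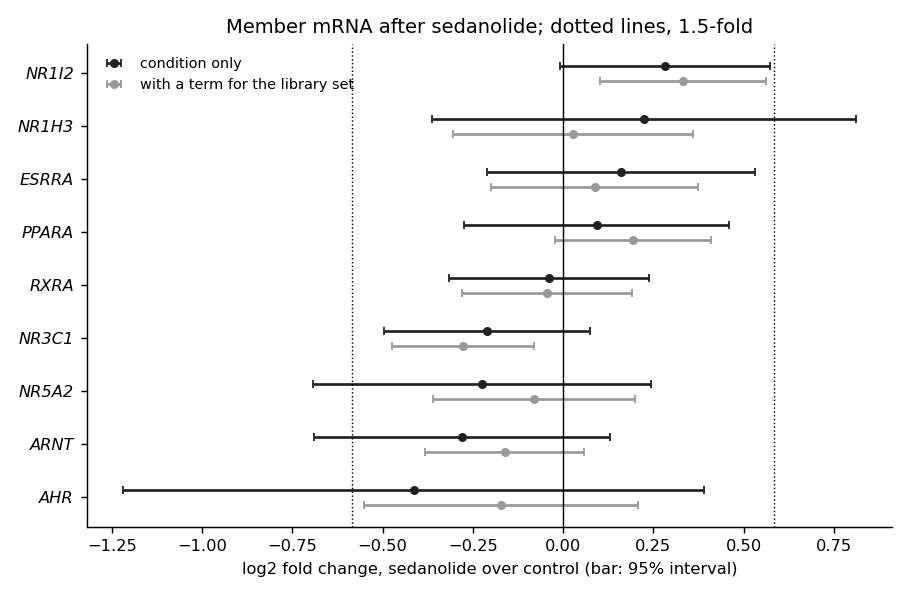
Fitted log2 fold change of sedanolide-treated over control cells for the 9 members tested, with 95% intervals, in the model with the condition only (black) and with a term for the library set (gray). All 9 black intervals hold 0, and with the term those of NR1I2 and NR3C1 do not. The dotted lines mark 1.5-fold.

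AHR (ENSG00000106546, plus strand of chromosome 7, 16916359 to 17346152) had 10.8, 14.3 and 7.97 normalized CPM in the control libraries 1 to 3, against 5.32, 7.18 and 12.3 CPM in the sedanolide libraries 1 to 3. The groups overlapped, and the 3 lowest libraries were those of the second set, with sedanolide 3 near the controls. The mean was 11.03 ± 3.16 CPM in control cells against 8.27 ± 3.61 CPM after sedanolide (mean ± SD of 3 libraries). Fitted by edgeR, sedanolide differed from control by a log2 fold change of -0.41 (standard error 0.34, 95% interval -1.22 to 0.39, adjusted p = 0.674). Within the first set, sedanolide differed from control by -0.018 on the log2 scale and within the second set by -0.34. Without sedanolide 3 the log2 fold change was -0.82 (adjusted p = 0.163), and without control 2 it was -0.18. AHR had only 99.0 to 337.0 counts per library, and the 2 genes that share exon bases with it had 7.23 and 8.39 counts in all libraries together.

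ARNT (ENSG00000143437, minus strand of chromosome 1, 150809713 to 150876708), the partner that AHR shares with the hypoxia factors, separated the library sets in the same direction. Its levels were 39.8, 41.3 and 33.2 CPM in the control libraries 1 to 3, against 26.4, 29.2 and 38.6 CPM in the sedanolide libraries 1 to 3. The second set was again lower than the first in each library, and the groups overlapped through control 3 and sedanolide 3. With edgeR's test, the log2 difference came to -0.28 (standard error 0.17, 95% interval -0.69 to 0.13, adjusted p = 0.581), and -0.16 with the set as a term. It was -0.46 without sedanolide 3 and -0.17 without sedanolide 1.

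The drug sensor NR1I2 (ENSG00000144852, plus strand of chromosome 3, 119780484 to 119818487) was the only member with all sedanolide libraries above all controls. Its levels were 23.7, 25.8 and 23.7 CPM in the control libraries 1 to 3, against 28.7, 27.3 and 33.2 CPM in the sedanolide libraries 1 to 3. The gap between the groups was narrow, from 25.8 CPM in control 2 to 27.3 CPM in sedanolide 2. The mean was 24.4 ± 1.23 CPM in control cells against 29.7 ± 3.07 CPM after sedanolide (mean ± SD of 3 libraries), a 1.22-fold difference. Fitted by edgeR, sedanolide differed from control by a log2 fold change of 0.28 (standard error 0.12, 95% interval -0.0073 to 0.57, adjusted p = 0.429). With the set as a term it was 0.33 (95% interval 0.10 to 0.56, adjusted p = 0.112), and within the sets sedanolide was 0.42 and 0.23 above control on the log2 scale. In TPM the groups overlapped, from 13.7 to 18.1 in control and from 15.8 to 22.3 in sedanolide libraries.

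RXRA (ENSG00000186350, plus strand of chromosome 9, 134317098 to 134440585), the shared partner of the metabolic receptors, had the smallest fitted difference of the 9. It had 100.9, 84.6 and 89.0 CPM in the control libraries 1 to 3, against 94.1, 87.4 and 85.5 CPM in the sedanolide libraries 1 to 3. The sedanolide libraries lay within the range of the controls. edgeR's log2 fold change of -0.04 had a 95% interval of -0.32 to 0.24 (adjusted p = 0.919), and it turned to 0.024 without control 1.

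PPARA (ENSG00000186951, plus strand of chromosome 22, 46150521 to 46243755), the fatty acid receptor, had 45.6, 51.3 and 40.5 CPM in the control libraries 1 to 3, against 43.2, 45.6 and 57.7 CPM in the sedanolide libraries 1 to 3. Only sedanolide 3 was above the control range. With edgeR's test, the log2 difference came to 0.09 (95% interval -0.27 to 0.46, adjusted p = 0.841) and -0.04 without sedanolide 3, so that its sign rests on this library.

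NR1H3 (ENSG00000025434, plus strand of chromosome 11, 47248300 to 47269033), the oxysterol receptor LXR alpha, went against AHR across the libraries. It had 26.8, 18.9 and 31.0 CPM in the control libraries 1 to 3, against 36.1, 31.9 and 21.5 CPM in the sedanolide libraries 1 to 3. The second set was above the first in every library. Fitted by edgeR, sedanolide differed from control by a log2 fold change of 0.22 (95% interval -0.36 to 0.81, adjusted p = 0.755), and 0.028 with the set as a term. It was 0.045 without control 2 and 0.42 without sedanolide 3. NR1H3 shares 189 exon bases with ACP2 of the other strand, a gene with 48.9% as many counts as NR1H3.

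The glucocorticoid receptor NR3C1 (ENSG00000113580, minus strand of chromosome 5, 143277931 to 143435512) was the only member with all sedanolide libraries below all controls. Its levels were 86.6, 91.2 and 99.98 CPM in the control libraries 1 to 3, against 85.6, 82.3 and 72.0 CPM in the sedanolide libraries 1 to 3. Control 1 and sedanolide 1 were nearly alike. The mean was 92.6 ± 6.82 CPM in control cells against 80.0 ± 7.10 CPM after sedanolide (mean ± SD of 3 libraries). With edgeR's test, the log2 difference came to -0.21 (standard error 0.12, 95% interval -0.50 to 0.075, adjusted p = 0.549). With the set as a term it was -0.28 (95% interval -0.47 to -0.082, adjusted p = 0.117), and within the sets sedanolide differed from control by -0.30 and -0.25. Without sedanolide 3 it was -0.14. On the per-length scale NR3C1 had 21.7, 24.0 and 23.8 TPM in the control libraries 1 to 3, against 18.3, 18.7 and 18.5 TPM in the sedanolide libraries 1 to 3. The groups were apart there too, and limma gave a log2 difference of -0.31 on log2(TPM + 1) (adjusted p = 0.334). Among the genes on that scale, 17.2% had groups that did not overlap, 0.554% were past both thresholds and 0 of the 9 members were, and 11.5% had an unadjusted p-value under 0.05.

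NR5A2 (ENSG00000116833, plus strand of chromosome 1, 200027614 to 200177420), the bile acid and cholesterol regulator LRH-1, had 30.8, 37.9 and 24.98 CPM in the control libraries 1 to 3, against 22.0, 26.5 and 31.7 CPM in the sedanolide libraries 1 to 3. It overlapped between the groups and was lower in the second set in every library. Fitted by edgeR, sedanolide differed from control by a log2 fold change of -0.22 (95% interval -0.69 to 0.24, adjusted p = 0.695) and -0.081 with the set as a term. It was -0.061 without control 2 and -0.36 without sedanolide 3.

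ESRRA (ENSG00000173153, plus strand of chromosome 11, 64305497 to 64316743), the receptor of energy genes, had 28.1, 20.9 and 28.3 CPM in the control libraries 1 to 3, against 30.8, 29.9 and 25.7 CPM in the sedanolide libraries 1 to 3. Control 2 was the lowest, and the groups overlapped. With edgeR's test, the log2 difference came to 0.16 (95% interval -0.21 to 0.53, adjusted p = 0.722). It was 0.029 without control 2 and 0.087 with the set as a term. ESRRA shares 284 exon bases with TRMT112 on the opposite strand, which had 18585.6 counts over all libraries, 537.9% of those of ESRRA.

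**Figure D3:**
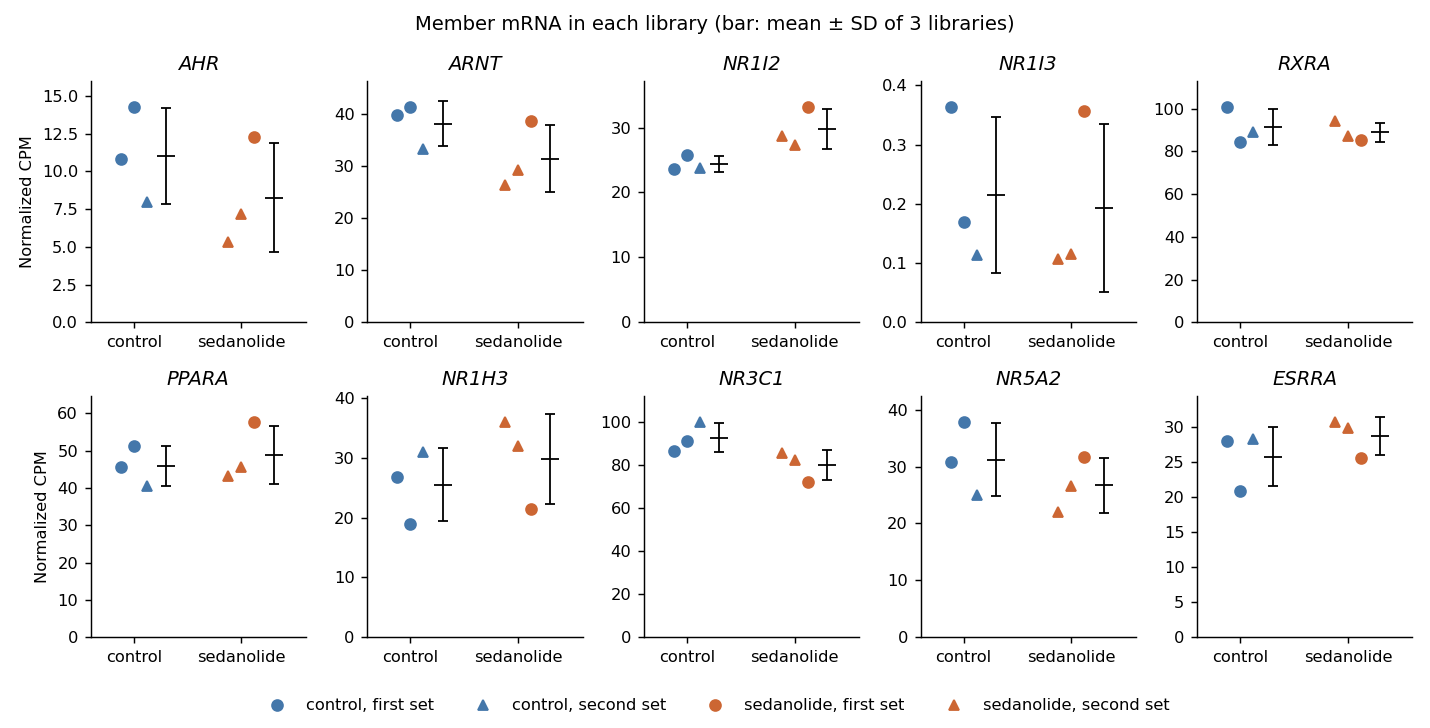
Normalized CPM of each of the 10 members in each library, with 1 point per library (color for treatment, circle for the first and triangle for the second library set) and mean ± SD of 3 libraries beside them. The axes start at 0 and differ between panels. Only NR1I2 and NR3C1 have groups that do not overlap.

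The library sets separated more members than the treatment did, as was also so among all genes tested. In 5 of the 9 members tested, the sets did not overlap in CPM, as in 44.1% of all genes tested. This share is a description with no test, since the sets were drawn from the same values. AHR, ARNT and NR5A2 were lower in the second set, by -0.83, -0.43 and -0.44 on the log2 scale. NR1H3 and ESRRA were higher in it, by 0.56 and 0.26. PPARA (-0.25), NR3C1 (0.10), NR1I2 (-0.041) and RXRA (0.0010) did not separate the sets. AHR had 12.5 CPM on average in the first set and 6.83 CPM in the second, a larger difference than between control and sedanolide-treated cells. Since the second set holds 2 of the 3 sedanolide libraries, differences between the sets enter the comparison of the treatment. With the set as a term, 2.7% of all genes tested were past both thresholds (1.07% higher, 1.63% lower) and 0 of the 9 members were, and NR1I2 and NR3C1 were the 2 members with an unadjusted p-value under 0.05, where 19.5% of all genes had one.

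**Figure D4:**
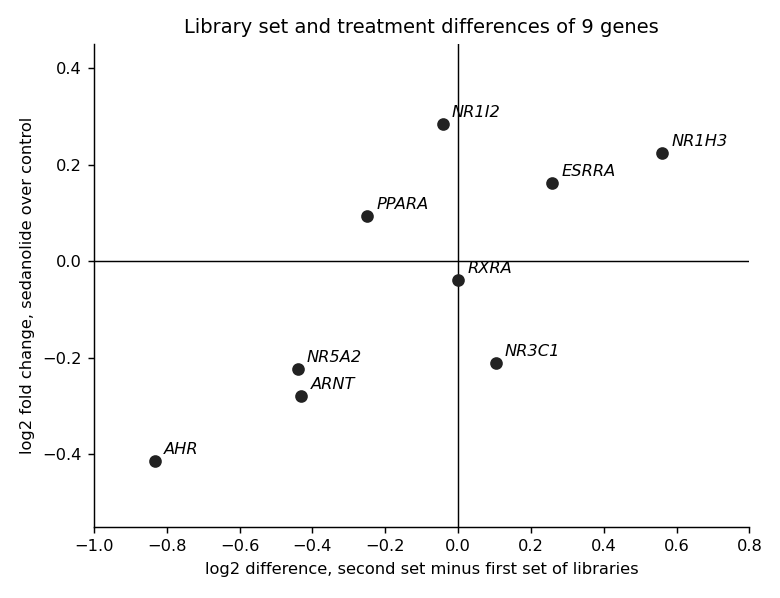
For the 9 members tested, the log2 difference between the second and the first library set (horizontal) against the fitted log2 fold change of sedanolide over control (vertical), 1 point per gene. AHR, ARNT and NR5A2 lie at lower left, NR1H3 and ESRRA at upper right, and NR1I2 and NR3C1 near 0 on the horizontal axis.

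Among target genes of the receptors, 4 genes fell and 2 rose past both thresholds, and they belong to few of the lists. The lists were written from general knowledge with earlier results of these data known, and that of the glucocorticoid receptor was first drawn up after these data had been seen, so that its count supports nothing by itself. SGK1, an ion transport kinase induced by glucocorticoids, had 89.2, 99.3 and 95.6 CPM in the control libraries 1 to 3, against 31.7, 31.9 and 31.0 CPM in the sedanolide libraries 1 to 3. Its libraries were tight within each group, and edgeR's log2 fold change came to -1.59 with a standard error of 0.11 (adjusted p = 0.00324). G6PC1 (glucose-6-phosphatase) and IGFBP1 (an insulin-like growth factor binding protein) also fell, by log2 fold changes of -2.61 and -0.99 (adjusted p = 0.0259 and 0.0300). G6PC1, IGFBP1 and PCK1 are regulated by insulin as well as by glucocorticoids. Of 13 glucocorticoid receptor targets tested among 15 listed, 3 fell and 0 rose, where 0.312% of all genes fell and 0.362% rose, with a list median of -0.54 beside 0.0057 for all genes, and of -0.36 with the set as a term. Of the 13, 9 were lower and 4 higher, with 5 lower and 1 higher at an unadjusted p-value under 0.05. PCK1, a gluconeogenic enzyme, differed by -0.88 on the log2 scale (adjusted p = 0.409 from edgeR), the transcription factor KLF9 by -0.54 (adjusted p = 0.5004) and the transcription factor CEBPD by -0.24 (adjusted p = 0.471). The log2 fold change of TSC22D3, a glucocorticoid-induced leucine zipper protein, was -0.71 (adjusted p = 0.465), that of PER1 -0.0073 (adjusted p = 0.992), that of DUSP1 0.12 (adjusted p = 0.760) and that of FKBP5 0.41 (adjusted p = 0.232), none past the threshold. FKBP5, a co-chaperone that binds the glucocorticoid receptor, was at 46.3 ± 3.23 CPM in control cells against 61.4 ± 4.48 CPM after sedanolide (mean ± SD of 3 libraries), without overlap. TAT and ERRFI1 of the same list were also higher, by 0.36 and 0.25 (adjusted p = 0.69 and 0.70 from edgeR). With the set as a term, FKBP5, TAT and ERRFI1 had 0.36, 0.60 and 0.41 (adjusted p = 0.0670, 0.0969 and 0.117 from edgeR). In that model 3 targets of the list were called lower and 0 higher.

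The first-line targets of AHR did not pass the threshold. CYP1A1, a monooxygenase that AHR ligands induce strongly, had 28, 28 and 22 counts in the control libraries 1 to 3, against 22, 31 and 34 counts in the sedanolide libraries 1 to 3. Its log2 fold change was -0.14 with a 95% interval of -0.71 to 0.44 (adjusted p = 0.855 from edgeR). TIPARP, a mono-ADP-ribosyltransferase that AHR induces, was at 31.2 ± 0.771 CPM in control cells against 27.9 ± 2.17 CPM after sedanolide (mean ± SD of 3 libraries), with a 95% interval of -0.43 to 0.10 around a log2 fold change of -0.16. All its sedanolide libraries were below all controls, narrowly, with 30.2 CPM in sedanolide 1 against 30.7 CPM in control 2 (adjusted p = 0.618 from edgeR). CYP1A2 had 0 counts in each library, which allows up to 3 counts per library, and CYP1B1 had at most 1. NQO1, a quinone reductase under the control of both AHR and NRF2, rose by a log2 fold change of 1.21 (adjusted p = 0.0172). It was the only 1 of the 5 AHR targets tested among 14 listed to be called, and the list median was -0.09. SLC7A5, an amino acid transporter, had 440.9, 377.4 and 351.8 CPM in the control libraries 1 to 3, against 506.0, 555.8 and 651.9 CPM in the sedanolide libraries 1 to 3. Its groups did not overlap, with 0.55 on the log2 scale (adjusted p = 0.203 from edgeR), and with the set as a term it was past both thresholds, at 0.63 (adjusted p = 0.00913).

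Of the targets of PXR and CAR, 8 of 15 had enough counts and 0 were called (2 higher and 1 lower at an unadjusted p-value under 0.05). CYP3A4, the main drug-metabolizing monooxygenase of the liver, had 5 to 11 counts per library and CYP2B6 had 2 to 10, too few to test. The drug efflux pump ABCB1 was at 102.0 ± 4.38 CPM in control cells against 98.1 ± 5.69 CPM after sedanolide (mean ± SD of 3 libraries), or on the log2 scale -0.057 with a 95% interval of -0.31 to 0.20. ABCC2, another efflux pump, and SULT2A1, a sulfotransferase, had groups that did not overlap, with log2 fold changes of 0.61 (adjusted p = 0.255) and -0.74 (adjusted p = 0.147). With the set as a term both were past the thresholds, at 0.73 (adjusted p = 0.00752) and -0.86 (adjusted p = 0.00358), in opposite directions.

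FABP1, a fatty acid binding protein of hepatocytes and a PPARA target, had 138.9, 139.9 and 106.0 CPM in the control libraries 1 to 3, against 48.4, 42.2 and 57.1 CPM in the sedanolide libraries 1 to 3. It fell by 1.38 on the log2 scale (adjusted p = 0.0265 from edgeR) and was the only 1 of 15 PPARA targets tested, among 20 listed, to be called. The mitochondrial fatty acid transferase CPT1A was at 68.9 ± 6.91 CPM in control and 67.9 ± 5.64 CPM in treated cells (SD, n = 3), with a 95% interval of -0.32 to 0.28. PDK4, a kinase that restrains glucose oxidation, had at most 2 counts in any library. ANGPTL4 (-0.62), a lipase inhibitor, and the peroxisomal oxidation enzyme EHHADH (-0.41) had negative log2 fold changes with adjusted p-values of 0.297 and 0.253 from edgeR. The list median was -0.06, and 0 genes were called higher. Of the 15, 9 were lower and 6 higher. At an unadjusted p-value under 0.05 from edgeR 5 were lower and 0 higher, where 6.57% of all genes were lower and 5.35% higher.

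Of the LXR targets, 13 of 15 were tested, with NR1H3 itself among them, and 0 were called (2 lower at an unadjusted p-value under 0.05). SREBF1, the regulator of fatty acid synthesis, did not overlap between the groups, with -0.49 on the log2 scale (adjusted p = 0.318), and the cholesterol exporter ABCA1 had -0.31 (adjusted p = 0.784). The list median of -0.23 was -0.087 with the set as a term. ABCA1 differed by -0.97 between the sets. Of 11 NR5A2 targets tested among 12 listed, AKR1C1 was called higher, by 2.29 (adjusted p = 0.0280 from edgeR), and 0 were called lower. Of the 11, 9 were lower and 2 higher, with 3 lower and 1 higher at an unadjusted p-value under 0.05. Their median was -0.36, or -0.28 with the set as a term. AKR1C1 is also a known NRF2 target. NR0B2, the corepressor SHP that NR5A2 and the bile acid receptor NR1H4 induce, was at 79.0 ± 6.84 CPM in control cells against 58.7 ± 1.98 CPM after sedanolide (mean ± SD of 3 libraries), or on the log2 scale -0.43 (adjusted p = 0.203). NR1H4 itself differed by 0.31 (adjusted p = 0.690), or by 0.056 with the set as a term. CETP, a lipid transfer protein, differed by -1.30 on the log2 scale (adjusted p = 0.0800) at under 2 CPM, and was past both thresholds with the set as a term, at -1.38 (adjusted p = 0.0221). Of 15 ESRRA targets tested among 16 listed, ESRRA included, 0 were called (3 higher at an unadjusted p-value under 0.05, namely CYCS, SDHB and IDH3A), with a median of 0.10, or of 0.047 with the set as a term.

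The calls of SGK1, G6PC1, IGFBP1, FABP1, NQO1 and AKR1C1 changed when libraries were left out. All 6 held with the set as a term. None was called without control 1 or without sedanolide 2, only SGK1 without control 2 or without sedanolide 1, 4 without control 3 (not IGFBP1 and AKR1C1) and 6 without sedanolide 3. Each of the 6 kept its direction and had an unadjusted p-value under 0.05 in all 6 of these fits. On log2(TPM + 1) with all libraries, limma called SGK1, NQO1 and AKR1C1. It did not call FABP1, G6PC1 and IGFBP1 (adjusted p = 0.0542, 0.0680 and 0.0680), which were lower there too.

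**Figure D5:**
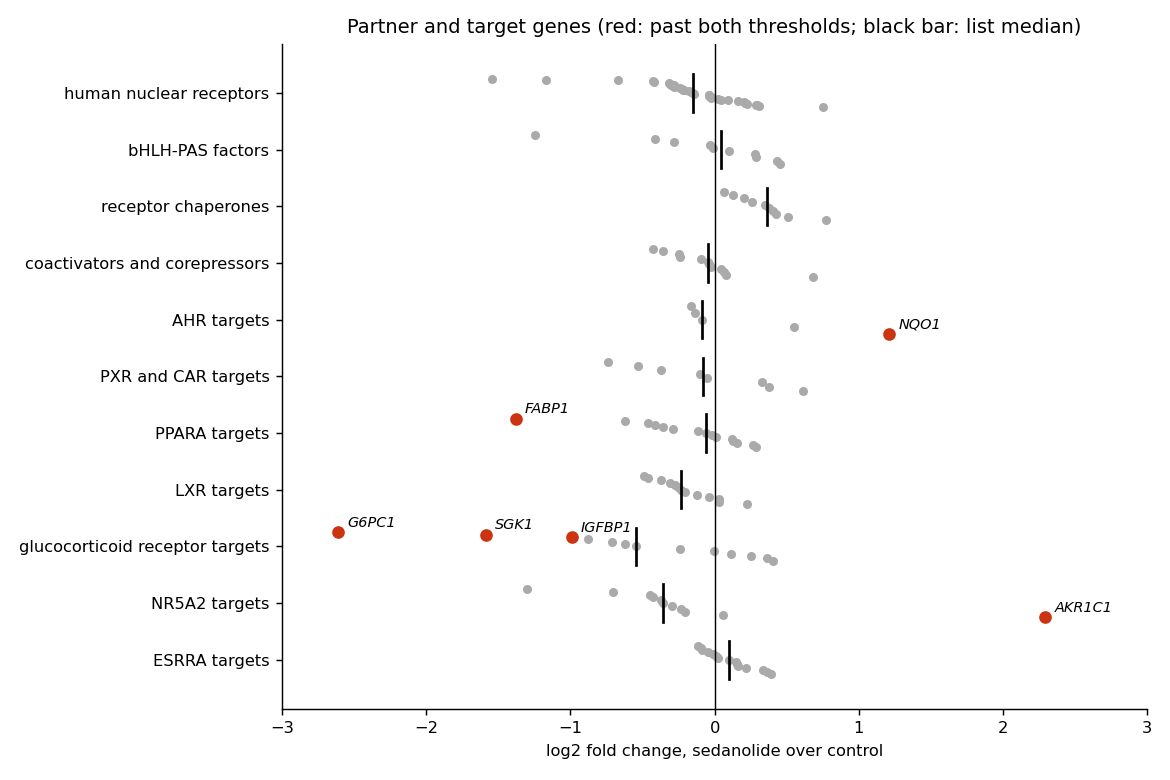
Fitted log2 fold change of sedanolide over control for each tested gene of the lists of partners and targets, 1 point per gene, with the list median as a black bar and genes past both thresholds in red with their names. Red points lie in 4 of the lists, G6PC1, SGK1, IGFBP1 and FABP1 on the left and NQO1 and AKR1C1 on the right.

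All 10 chaperones and co-chaperones of the receptors had enough counts, and all 10 had positive log2 fold changes in this fit. Of them 0 were called, and 4 had an unadjusted p-value under 0.05 and were higher, where 5.35% of all genes were higher and 6.57% lower. FKBP4, which carries the glucocorticoid receptor with HSP90, had 120.2, 85.6 and 146.9 CPM in the control libraries 1 to 3, against 239.9, 215.6 and 145.4 CPM in the sedanolide libraries 1 to 3. Sedanolide 3 lay at the level of control 3, and the other sedanolide libraries were above all controls. Fitted by edgeR, sedanolide differed from control by a log2 fold change of 0.77 (adjusted p = 0.297). The others were PTGES3 (0.43), FKBP5 (0.41) and HSP90AA1 (0.51), the inducible HSP90. These genes also differed between the sets, by 0.78 for FKBP4, 0.63 for HSP90AA1 and 0.49 for PTGES3, with the second set higher. The list median of 0.36 became 0.22 with the set as a term.

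In the whole family of 48 human nuclear receptors, 35 were tested and 0 were called (edgeR), with 1 higher and 4 lower at an unadjusted p-value under 0.05. The median of the 35 was -0.15 and -0.091 with the set as a term, and 24 had negative values. NR4A3, an orphan receptor, differed by -1.17 on the log2 scale (adjusted p = 0.411) and RARB, a retinoic acid receptor, by 0.75 (adjusted p = 0.348). VDR, the vitamin D receptor, had 3.70, 3.98 and 6.39 CPM in the control libraries 1 to 3, against 3.01, 3.48 and 2.34 CPM in the sedanolide libraries 1 to 3. Its groups did not overlap, and its log2 fold change was -0.67 (adjusted p = 0.389), or -0.85 with the set as a term (adjusted p = 0.0248), where it was the only nuclear receptor past both thresholds. The close relatives of the members RXRB (-0.04) and NR1H2 (0.20) and the hepatocyte regulator HNF4A (-0.22) were not past the threshold.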

How the data were processed

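RNA-seq was performed by the authors on 3 control and 3 sedanolide-treated libraries. According to the methods and labels, the authors used Trimmomatic for trimming, STAR for alignment to GRCh38 and RSEM for quantification. Versions and the annotation are not given in the sources used here. The deposited tables hold expected counts, not normalized, and the authors' log2(TPM + 1) for 11006 genes and reporters, whose filter is not stated. Samples were grouped by their titles. Identifiers of 61369 genes were found in GENCODE 44, which gave symbols and positions.

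After rounding, the expected counts were tested with edgeR 4.0.16 under R 4.3.3 (filterByExpr, TMM, robust quasi-likelihood test, condition as the only term). A call needed an FDR of 0.05 (Benjamini-Hochberg) together with a 1.5-fold change. The authors' own test was DESeq2. Alternatives were DESeq2 1.42.0, limma-voom, other size factors and filters, the replicate number or library set as a term, and each library left out. The added 1 was read from the values, and this table was tested with limma 3.58.1. Libraries had 16420258 to 26714853 counts, and a count of 0 allows up to 3, for counting error only. Within-set differences are of log2(CPM + 0.5). The named genes are the 10 members, the called genes, the 4 largest differences of each list and 18 genes fixed by name, of which those that a result turned on are printed. Some genes under this rule are not reported here but were kept in every model and count. PER1, DUSP1, KLF9, CEBPD, TAT, ERRFI1, CYP1A2, CYP1B1, EPCAM and PECAM1 were named after their values were seen. The members and lists were chosen with earlier results of these data known. The procedure was tested on simulated data. No libraries of a group agreed within sampling noise, and none was left out.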

Additional observations from a re-analysis of the deposited data

How the results depend on the processing

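Of the 9 members tested, 0 were called under any of the 15 other settings, nor in the log2(TPM + 1) table under its alternatives. Of 135 log2 fold changes of members under these settings, 133 kept their sign. Those that turned were RXRA (-0.093 to 0.024 with 1 library left out) and PPARA (-0.044 to 0.18). Other genes that turned were CYP1A1 (-0.24 to 0.025), CPT1A (-0.099 to 0.039, and 0.050 with the library set as a term), RXRB (-0.11 to 0.038) and PPARGC1A (-0.12 to 0.23). The number of genes called, 95 in the main analysis, was 328 with DESeq2, 158 without a filter on low counts, 381 with the library set as a term (chosen after seeing the data) and 0 to 136 with 1 library left out. The number of called partner and target genes, 6 in the main analysis, was 12 with the set as a term and 0 to 6 with 1 library left out. With the replicate number as a block, 0 genes were called, 0 of them partners or targets, and 772 had an unadjusted p-value under 0.05. Deviations from the group mean correlated at -0.133, -0.295 and -0.73 between libraries of the same number. The library sets enter these values, so that they cannot show whether libraries of the same number were paired. DESeq2 also called SULT2A1 and CETP. Low counts limit NR1I3, CYP3A4, CYP2B6 and the receptors under 1 CPM.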

Other observations

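Of 16 bHLH-PAS factors, the family of AHR and ARNT, 10 were tested and 0 were called by edgeR, with 1 lower at an unadjusted p-value under 0.05. That gene was BMAL1, a core clock factor, at 0.853 ± 0.245 CPM in control cells and 0.352 ± 0.142 CPM after sedanolide (mean ± SD of 3 libraries). Its groups did not overlap, and its log2 fold change was -1.24 (adjusted p = 0.276 from edgeR). The median of the 10 was 0.042 beside 0.0057 over all genes tested, and 0.12 with the library set as a term.

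All 12 coactivators and corepressors of the receptors were tested and 0 were called by edgeR, with 0 at an unadjusted p-value under 0.05 and a median of -0.044, or of 0.034 with the library set as a term. PPARGC1B, a coactivator of ESRRA and relative of PGC-1 alpha, had 5.69, 7.12 and 3.84 CPM in the control libraries against 6.56, 7.76 and 12.5 CPM in the sedanolide libraries. Its groups overlapped, and its log2 fold change was 0.68 (adjusted p = 0.445 from edgeR), or 0.93 with the library set as a term (adjusted p = 0.0104). PPARGC1A differed by 0.082 (adjusted p = 0.902 from edgeR).

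KRT19, a keratin of bile duct cells that HepG2 cells also express, was the only one of the 6 markers of other cell types tested, among 14 listed, to be past both thresholds with the set as a term. It was at 34.9 ± 10.3 CPM in control cells and 15.2 ± 4.94 CPM after sedanolide (mean ± SD of 3 libraries), with a log2 fold change of -1.43 with the term (adjusted p = 0.00430 from edgeR) and -1.21 without it (adjusted p = 0.186). With DESeq2 the log2 fold change of KRT19 was -1.21 and it was called (adjusted p = 0.00823).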
